A study of Mus musculus with 4 samples.

Results

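The cells described are alveolar type 1 (AT1) cells of the mouse lung at postnatal day 15, a time when the gas exchange surface is being divided by new septa. They were chosen by measured values. The deposited value of each cell was unlogged, and a cell was kept when its sum over 8 AT1 genes (Ager, Hopx, Pdpn, Aqp5, Rtkn2, Clic5, Akap5 and Emp2) was at least 0.5 times the median of that sum over the library. The rule kept 2670 of the 2940 cells of the day 15 library, or 90.8% (exact 95% interval 89.7 to 91.8), out of 9519 cells in the 4 libraries of the series. The 8 genes therefore describe how the cells were selected and are not a finding about them.

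The mice carried Sftpc-CreER, Rosa26-Zsgreen and Hopx-RFP on a mixed FVB/C57BL6 background and had been given tamoxifen in 1-2 doses. In such mice a tamoxifen-activated Cre driven by the surfactant protein C gene turns on a green reporter in AT2 cells, and Hopx drives a red one. After digestion of the lung with neutral protease, elastase, collagenase and DNase, cells that were red, positive for the surface protein Pdpn, and negative for green and for the leukocyte protein CD45 were sorted and put through the 10x 3' chemistry. The gate selects on Hopx and Pdpn, so the presence of these genes is set by the sort as well as by the rule. How many animals the library pools is not stated in the labels, and with 1 library no difference below has a replicate check and no test was made. All intervals cover counting error only.

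AT1 cells are very thin, spread-out epithelial cells that cover most of the alveolar surface and share a basement membrane with the capillaries beneath them. Their sheet carries water and ion channels, is sealed by tight junctions, and sends signals to the endothelium and mesenchyme while alveoli form. They arise from the same epithelial progenitors as the surfactant-making AT2 cells and can also be made by AT2 cells.

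The deposited values allowed the unique molecular identifiers (UMIs, which count captured transcripts) of every cell to be recovered as whole numbers. The member cells held 13960421 UMIs, with 1434 to 21046 per cell (median 4970) and 2040 detected genes in the median cell. Of the 12851 listed genes, 7520 reached 10 CPM (UMIs of a gene summed over the member cells per 1000000 UMIs), 1622 reached 100 CPM and 130 reached 1000 CPM. The median listed gene stood at 15.1 CPM. Since each transcript is counted at its 3' end, levels of different genes are compared without scaling for length. The library shared 15, 6 and 9 cell barcodes with the day 3 AT1, the day 60 AT1 and the day 60 AT2 libraries.

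Few cells lay near the threshold of the marker sum. Its median over the library was 466.9 UMIs per 10000, which put the threshold at 233.5. The 3 lowest sums inside the rule were 234.8, 235.8 and 239.3, and the 3 highest outside were 233.1, 231.5 and 230.6. Only 21 cells lay within 10% of the threshold, and 239 of the 270 cells outside had sums under 25% of the library median. Member cells had a median sum of 478.8 (10th to 90th percentile 368.6 to 609.1), against 18.0 in the cells outside.

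**Figure D1:**
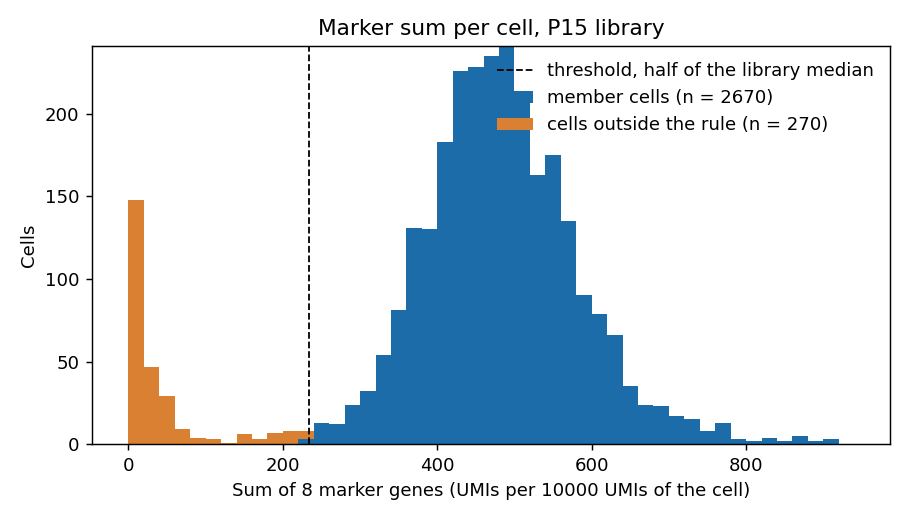
Sum of the 8 AT1 genes in each cell (x axis, UMIs per 10000 UMIs of the cell) against the number of cells (y axis, stacked), with the 2670 member cells in blue, the 270 cells outside the rule in orange and the threshold of 233.5 as a dashed line. Most outside cells sit near 0 and few cells of either kind sit near the line.

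When the whole library was clustered, 2652 of the member cells and 19 of the outside cells fell in 6 of 10 clusters of the whole library, those with AT1 marker levels of 104 to 118% of the library's. These markers include the genes of the rule, so this is a description of the selection and not an independent check. The other outside cells fell in clusters led by fibroblast and mural genes (105 cells), club and AT2 genes (58 cells), immune genes (50 cells) and endothelial genes (38 cells), and 18 member cells fell in these same 4 clusters. The 193 fibroblast or mural, immune and endothelial-like cells outside the rule served as a gauge of free RNA, since they should not express AT1 genes. Their median depth was 4243 UMIs. An Ager UMI was found in 91.2% of them, at 1650 CPM, against 100% of member cells at 35024 CPM. For Hopx the shares were 96.5% of member cells and 18.1% of the non-epithelial cells. A share of cells with a UMI is therefore read below only beside its share in those 193 cells. For genes that those cells express themselves, their share and level are not a gauge of free RNA.

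Ager, whose product binds glycated proteins and S100 proteins, was the most abundant protein-coding transcript of the member cells at 35024 CPM (34926 to 35122). Emp2, a four-pass membrane protein gene, stood at 4159 CPM and the water channel gene Aqp5 at 3590 CPM. Rtkn2, which encodes rhotekin 2, stood at 1417 CPM, the chloride channel family gene Clic5 at 1353 CPM and the podoplanin gene Pdpn at 1275 CPM. Hopx, a homeodomain protein gene, stood at 1244 CPM (1226 to 1263), and Akap5, which anchors protein kinase A, at 888.2 CPM. Igfbp2, a binding protein of insulin-like growth factors that took no part in the rule, stood at 1868 CPM (1845 to 1891), against 163.8 CPM in the non-epithelial cells. In the GRCm38 annotation Ager lies on chromosome 17 from 34597862 to 34600936 and Igfbp2 on chromosome 1 from 72824503 to 72852474, both on the plus strand, and Hopx on chromosome 5 from 77086988 to 77115121 on the minus strand. All 3 are protein-coding genes, and the UMIs do not resolve their exons.

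A few genes held much of the RNA. The nuclear noncoding RNA Malat1 led at 66522 CPM and Ager followed. Next came Tmsb4x, which encodes the actin-sequestering peptide thymosin beta 4, at 19497 CPM, Actb at 9345 CPM, Prdx6, which encodes a peroxiredoxin with phospholipase activity, at 8124 CPM, and the matrix glycoprotein gene Sparc at 7997 CPM. S100a6 stood at 6982 CPM, Igfbp7 at 6941 CPM and Rgcc, a regulator of the cell cycle, at 4228 CPM. The 15 most abundant genes, with ribosomal protein and mitochondrial genes left out, took 18.6% of the UMIs. Mitochondrial genes took 3.06% and ribosomal protein genes 7.32%.

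Of 39 listed AT1 genes, 38 reached 100 CPM, where 12.6% of all listed genes did, and their median was 1119 CPM. That list holds the 8 genes of the rule, so its count is a description. Among the members outside the rule, the AT1 claudin Cldn18 stood at 2881 CPM, the caveolin gene Cav1 at 2569 CPM, the keratin gene Krt7 at 2503 CPM, the scaffold gene Lmo7 at 2197 CPM and Icam1, an adhesion receptor gene, at 1381 CPM. Cyp2b10, a cytochrome P450 gene, reached 1157 CPM. Cldn4, a claudin of other lung epithelia, was the member below 100 CPM at 1.15 CPM, and Mab21l4 was not listed.

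The genes of the cell cortex were high as a group, at a median of 958.7 CPM. Of 36, 34 (94.4%) reached 100 CPM, where 12.6% of all listed genes did. Besides Tmsb4x and Actb these were the myosin light chain genes Myl12a at 3628 CPM and Myl6 at 2497 CPM, the membrane scaffold gene Ahnak at 1768 CPM and the annexin genes Anxa2 and Anxa3 at 1884 and 1622 CPM. Flna, which encodes a filamin, was among the members below, at 65.2 CPM. The 4 listed keratin genes ran from Krt7 at 2503 CPM through Krt19 at 914.8 CPM and Krt8 at 440.5 CPM to Krt18 at 342.6 CPM. The basal keratin genes Krt5, Krt14, Krt15 and Krt17 were not listed.

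Of the 18 junction genes, 12 (66.7%) reached 100 CPM, where 12.6% of all listed genes did. Cldn18 was followed by F11r, an immunoglobulin-type junction protein gene, at 662.6 CPM and the alpha-catenin gene Ctnna1 at 585.1 CPM, with the E-cadherin gene Cdh1 at 233.7 CPM and the occludin gene Ocln at 141.0 CPM. Cldn3 stood at 29.6 CPM, against 336.5 CPM in the cells outside the rule.

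Water and ion transport genes reached 100 CPM in 13 of 22 cases (59.1%), where 12.6% of all listed genes did. The rule gene Aqp5 is a water channel gene, so this count is in part a description of the selection. The 3 subunit genes of the epithelial sodium channel, which draws fluid from the airspace, were all present, Scnn1g at 769.9 CPM, Scnn1a at 747.3 CPM and Scnn1b at 337.0 CPM. The sodium pump subunit gene Atp1b1 stood at 885.0 CPM and the zinc transporter gene Slc39a8 at 1117 CPM. Aqp1, a water channel better known from capillaries, stood at 552.6 CPM, and Aqp4 at 4.94 CPM. The chloride channel gene Cftr had 0.501 CPM and the AT2 phosphate transporter gene Slc34a2 had 4.37 CPM.

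The basement membrane list was split between chains that were plentiful and chains near 0. Here 18 of 30 genes (60%) reached 100 CPM, where 12.6% of all listed genes did, and 8 were under 1 CPM. The median of the 30 was 267.4 CPM, where that of all listed genes was 15.1 CPM. Of the collagen IV chain genes, Col4a2 stood at 1262 CPM and Col4a1 at 1030 CPM. Col4a4 stood at 1072 CPM, Col4a3 at 974 CPM and Col4a5 at 485.9 CPM. Among laminin chain genes of epithelial sheets, Lamb3 stood at 349.4 CPM and Lama3 at 319.9 CPM. Lamb2 stood at 278.4 CPM and Lama5 at 148.1 CPM, the perlecan gene Hspg2 at 565.8 CPM and the agrin gene Agrn at 562.3 CPM. The linking protein gene Nid1 stood at 0.573 CPM, against 65.2 CPM in the cells outside, Lamb1 at 0.43 CPM, against 53.4 CPM outside, and Lama4 at 0.501 CPM, against 51.3 CPM outside. Col4a3 and Col4a4 lie head to head on chromosome 1, Col4a4 from 82448423 to 82586849 on the minus strand and Col4a3 from 82586921 to 82722059 on the plus strand.

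Of the elastin and matrix remodelling genes 9 of 25 (36%) reached 100 CPM, where 12.6% of all listed genes did. The median of the 25 was 27.1 CPM, where that of all listed genes was 15.1 CPM, and 6 were under 1 CPM. Fbln5, which encodes an elastic fibre assembly protein, reached 921.7 CPM in the member cells (905.8 to 937.7), against 213.7 CPM in the cells outside. Elastin itself, Eln, stood at 27.1 CPM in member cells, against 5787 CPM outside, and 38.5% of the Eln UMIs of member cells came from 4 cells. The fibrillin gene Fbn1 stood at 0.43 CPM. The protease inhibitor genes Timp3 and Timp2 stood at 2550 and 845.7 CPM, and Mmp11 was the highest of the matrix metalloprotease genes at 174.3 CPM.

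Among integrin and matrix receptor genes, 9 of 15 (60%) reached 100 CPM, where 12.6% of all listed genes did. Dag1, the dystroglycan gene, led at 1131 CPM, followed by Itgb1 at 392.1 CPM and Itga3, the laminin-binding partner of that chain, at 282.0 CPM. Itgb6, whose product activates TGF-beta, stood at 166.9 CPM, against 11.8 CPM outside the rule. Itga6 stood at 7.66 CPM and Itgb4 at 0.287 CPM.

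Genes for signals to neighbouring cells reached 100 CPM in 14 of 38 cases (36.8%), where 12.6% of all listed genes did. Vegfa, the main endothelial growth factor gene, stood at 926.6 CPM (910.7 to 942.7), against 88.1 CPM in the cells outside the rule. Pdgfa, a growth factor gene for the precursors of alveolar myofibroblasts, stood at 770.6 CPM and Ndnf, which encodes a secreted neurotrophic factor, at 697.5 CPM. The guidance cue genes Sema3e, Sema3b and Sema3a stood at 383.7, 304.9 and 238.7 CPM and the nerve growth factor family gene Bdnf at 226.9 CPM. The morphogen genes Wnt3a, Wnt7a and Shh were lower. Wnt3a stood at 74.2 CPM, with a UMI in 30.1% of member cells and 2.59% of the non-epithelial cells. Wnt7a stood at 69.0 CPM, with 28.3 and 1.55% of these cells. Shh stood at 24.5 CPM with a UMI in 11.1% of member cells, and in 0 of the 193 non-epithelial cells, which allows a share of up to 1.55%. Edn1, Wnt5a and Cxcl12 were each under 1 CPM.

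**Figure D2:**
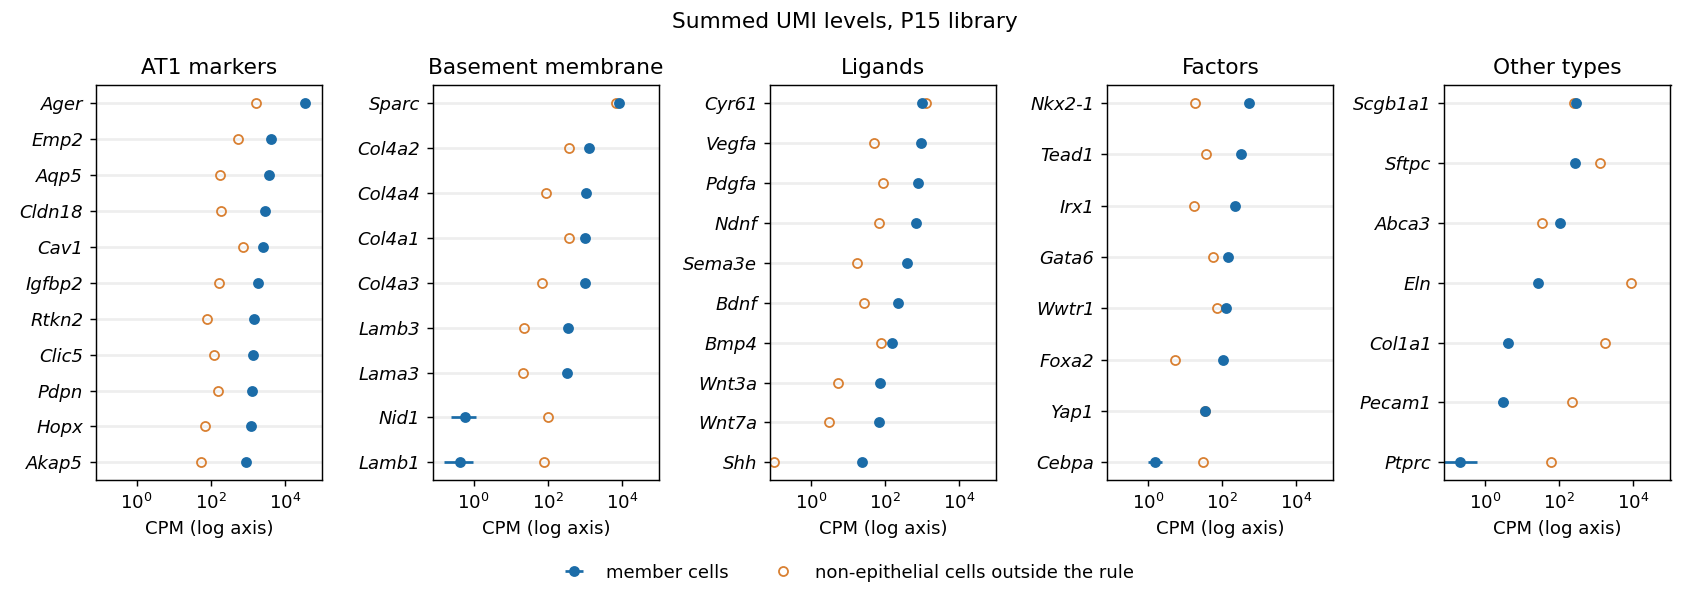
Levels of genes by role (rows) in CPM on a log axis, in member cells (filled, with exact 95% Poisson intervals, mostly narrower than the point) and in the 193 non-epithelial cells outside the rule (open, with a level of 0, that of Shh, drawn at 0.1 CPM). Nid1 and Lamb1 stand near 0 in member cells while the collagen IV genes, Lamb3 and Lama3 exceed 300 CPM, and Scgb1a1 has nearly the same level in both.

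Of the receptor genes 9 of 42 (21.4%) reached 100 CPM, where 12.6% of all listed genes did, and their median was 36.4 CPM, where that of all listed genes was 15.1 CPM. The list holds Ager, a gene of the rule, so its count is in part a description of the selection. Bsg, which encodes the glycoprotein basigin, stood at 2602 CPM and the tissue factor gene F3 at 322.6 CPM. The Wnt receptor gene Fzd2 stood at 186.1 CPM, against 30.5 CPM outside the rule. Egfr stood at 66.4 CPM, Fgfr2 at 45.1 CPM and the Hedgehog receptor gene Ptch1 at 51.6 CPM.

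In the insulin-like growth factor axis, the binding protein genes Igfbp7 (6941 CPM), Igfbp2 (1868 CPM) and Igfbp6 (292.3 CPM) were followed by the protease gene Htra1 at 218.4 CPM and the receptor gene Igf1r at 148.5 CPM. Insr, the insulin receptor gene, stood at 27.3 CPM. The ligand gene Igf1 and the binding protein gene Igfbp3 were at 0 in all member cells, which allows a level of up to 0.215 CPM, against 23.6 and 56.9 CPM outside, and Igf2 was not listed.

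Of 56 listed lung transcription factor genes, 19 (33.9%) reached 100 CPM, where 12.6% of all listed genes did. The list holds Hopx, which was used by the rule and the sort. After Hopx came Nkx2-1, which specifies lung epithelium, at 537.6 CPM (525.5 to 549.9), against 19.1 CPM in the non-epithelial cells. Tead1, the DNA-binding partner of YAP and TAZ, stood at 318.5 CPM, the TAZ gene Wwtr1 at 127.9 CPM and Yap1 at 34.2 CPM. Irx1, Irx3, Gata6 and Foxa2 stood between 105.7 and 220.4 CPM. Cebpa, a factor of AT2 cells, stood at 1.58 CPM, Etv5 at 0.716 CPM, and the airway factor gene Sox2 at 0, which allows up to 0.215 CPM. Targets of YAP and TAZ reached 100 CPM in 12 of 24 cases (50%), where 12.6% of all listed genes did. They were led by the secreted matricellular genes Cyr61 at 987.6 CPM and Ctgf at 651.8 CPM.

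The cells carried little cell cycle RNA. Of 20 listed cell cycle genes 11 were under 1 CPM, among them Mki67 at 0.287 CPM and Top2a at 0.501 CPM. The median of the 20 was 0.895 CPM, where that of all listed genes was 15.1 CPM. Tubb4b, a tubulin gene also used outside division, was the member above 100 CPM at 394.3 CPM. The inhibitor gene Cdkn2b, whose product blocks the cell cycle kinases CDK4 and CDK6, stood at 457.0 CPM (445.9 to 468.4), with a UMI in 80.4% of member cells and 10.9% of the non-epithelial cells. It lies on chromosome 4 from 89306299 to 89311039 on the minus strand. Cdkn1a stood at 131.2 CPM and the neighbouring locus gene Cdkn2a at 2.65 CPM.

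Markers of other cell types were checked one list at a time. Fibroblast, pericyte or smooth muscle, immune and lymphatic markers summed to 54.7, 21.7, 42.4 and 1.58 CPM in member cells, against 12673, 3366, 4161 and 1369 CPM in the cells outside. Erythroid and basal markers were not listed. Wt1, Lyve1 and Flt4 were the listed markers at 0, which allows up to 0.215 CPM each. The endothelial list summed to 299.8 CPM, of which Esam gave 279.6 CPM, while Pecam1 stood at 3.15 CPM and Egfl7 at 3.08 CPM. The ciliated list summed to 1452 CPM, of which Tppp3 gave 1439 CPM, while Foxj1 stood at 0.86 CPM. The mesothelial list summed to 560.2 CPM, of which Msln gave 369.8 CPM and Gpm6a 179.9 CPM.

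AT2 and club genes need the free RNA gauge. The 10 AT2 markers summed to 596.3 CPM in member cells, against 23973 CPM in the cells outside the rule. A UMI of 3 or more of them was held by 265 member cells. Scgb1a1, the club cell secretory gene, stood at 275.9 CPM with a UMI in 71.3% of member cells. In the non-epithelial cells it was nearly as high, at 258.5 CPM and 66.3% of cells, and the part of free RNA was not tested. Sftpc stood at 260.2 CPM, against 1278 CPM in the non-epithelial cells, and 4 member cells held 54.7% of its UMIs, up to 1100 in a cell. Without the 18 member cells that clustered with other types, its level was 124.3 CPM and its Fano factor across thinned cells (explained below) was 4.54, in place of 74.7. Sftpc is a leading gene of the club and AT2 cluster, so a fall was built into this removal. For Lyz2, at 25.9 CPM, 4 cells held 65.4%. Abca3, a lipid transporter gene of AT2 lamellar bodies, stood at 107.0 CPM with no such concentration, with a UMI in 40.0% of member cells and 10.4% of the non-epithelial cells. Tshb, a pituitary hormone subunit gene chosen after its values were seen, stood at 165.2 CPM (158.5 to 172.1), with a UMI in 50.6% of member cells and 5.7% of the non-epithelial cells. It lies on chromosome 3 from 102775465 to 102782718 on the minus strand.

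Other pathways are given by their counts at 100 CPM, to be set beside the 12.6% of all listed genes. Of the glucocorticoid response genes 10 of 20 reached it, with Tsc22d3 at 1213 CPM and Sgk1 at 807.9 CPM, against 803.0 and 409.5 CPM in the non-epithelial cells. Of the antioxidant and metallothionein genes 11 of 24 did, among them the glutathione peroxidase gene Gpx4 at 1875 CPM, and of the class I antigen presentation genes 6 of 17, with B2m at 1370 CPM. Of the genes that respond to TGF-beta and BMP 3 of 20 did, all of them inhibitors of DNA binding (Id3, Id1 and Id2 at 361.5, 158.7 and 109.5 CPM), and of the Wnt and Notch response genes 2 of 15 (Hes1 and Ccnd2). The shares of these 2 lists, 15 and 13.3%, were near that of all listed genes. None of the 11 listed retinoid pathway genes did, Dhrs3 being highest at 64.3 CPM.

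To describe variation between cells, each member cell was thinned at random to 2000 UMIs, which left 2468 cells and set aside 202 shallower ones. The Fano factor, the variance of a gene's UMIs over their mean, is near 1 when counting alone makes cells differ. Among 1608 genes with a mean of at least 0.2 UMIs its median was 1.05, and 81 genes, or 5.04%, reached 1.5. Of the AT1 genes 12 of 38 reached 1.5, of the cortex genes 11 of 34, of the basement membrane genes 1 of 18 (Sparc) and of the lung transcription factors 2 of 19 (Id3 and Klf2). The Fano factor of a gene with counting noise and a fixed relative spread grows with its mean, which should be read beside those counts, since these lists hold many abundant genes.

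The genes of the rule varied little beyond counting, apart from the abundant ones. In 2000 UMIs Hopx had a median of 2 and a 10th to 90th percentile range of 0 to 5, with a Fano factor of 1.34. Pdpn had a median of 2 and a range of 1 to 5 (1.28), and Rtkn2 a median of 3 and a range of 1 to 5 (1.23). Ager had a median of 69, a range of 49 to 92 and a Fano factor of 4.40, and Aqp5 a median of 6, a range of 2 to 12 and a factor of 2.41. The 28 pairs of rule genes had a median Pearson r of 0.01 across the cells (lowest -0.09 for Aqp5 with Rtkn2, highest 0.25 for Ager with Aqp5), after a selection that fixed their sum from below.

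Igfbp2, which took no part in the rule or the sort, was spread more widely than Hopx, Pdpn or Rtkn2, which were rule genes. It had a median of 3 UMIs of 2000, a 10th to 90th percentile range of 0 to 8 and a maximum of 28, with a Fano factor of 3.71, and the top 10% of the cells held 32.7% of its UMIs, where for Hopx they held 25.1%. No UMI was drawn in 520 of the 2468 cells and 10 or more in 164. Cyp2b10 (Fano factor 2.86, range 0 to 6), Selenbp1, a methanethiol oxidase gene (3.30, range 1 to 11), and Neat1 (3.83, range 0 to 7) were spread in the same way. Actb had the widest spread of the abundant protein-coding genes, with a median of 11, a range of 4 to 50 and a Fano factor of 17.9. The part of the selection in the narrower spread of Hopx, Pdpn and Rtkn2 was not tested.

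**Figure D3:**
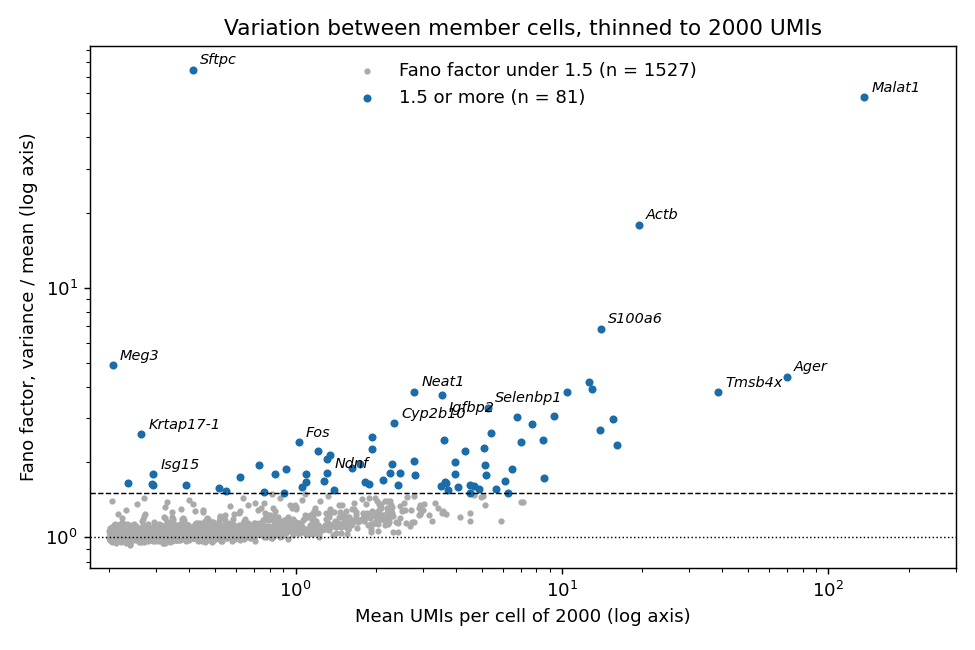
Fano factor of each of 1608 genes across 2468 member cells thinned to 2000 UMIs (y axis, log) against the gene's mean UMIs (x axis, log), with the 81 genes at 1.5 or more in blue, the dotted line at 1 and the dashed line at 1.5. Most genes lie near 1, and Malat1, Sftpc, Actb, S100a6 and Meg3 stand highest.

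Relative to their means, the most uneven genes were low ones seen in a minority of cells. After Sftpc the order of excess variance over the mean was the imprinted noncoding RNA Meg3, Krtap17-1, S100a14, the interferon-induced gene Isg15, the imprinted gene Nnat and Phlda1. Meg3 had a UMI in 12.7% of member cells, against 30.6% of the non-epithelial cells (353.1 CPM), and up to 58 in a member cell. The 20 member cells with most held 29.3% of its UMIs, and it was at 0 CPM in the cells with under 0.1% Malat1. Krtap17-1, annotated as a keratin-associated protein gene, stood at 120.0 CPM in member cells, against 5.32 CPM in the non-epithelial cells, and the top 10% of thinned cells held 77.3% of its UMIs.

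Several genes varied together. Correlations are Pearson r of log(1 + UMIs) across the 2468 thinned cells, given as descriptions: the cells share a library and its free RNA, the total is fixed, and the median r over all pairs of the 1608 genes was 0.001. Selenbp1 had its highest correlations with Rgcc (0.46), Prdx6 (0.42), the glucocorticoid-induced gene Tsc22d3 (0.35), Atp1b1 (0.31), Cyp2b10 (0.29), Pxdc1 (0.27), Cav1 (0.27) and Sgk1 (0.26), a kinase gene whose product raises sodium channel activity. Its lowest were with Tmsb10 (-0.35), Ndnf (-0.33), S100a11 (-0.32) and Igfbp2 (-0.27). Selenbp1 was taken up for this after its values were seen.

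From the 246 cells without a Selenbp1 UMI to the 379 cells with 10 to 28, mean Rgcc ran through 4.57, 6.53, 8.69, 10.1 and 10.7 UMIs of 2000 over 5 classes of cells. Mean Tmsb10 ran through 6.20, 4.69, 3.27, 2.75 and 2.42, and mean Igfbp2 through 5.75, 4.50, 3.37, 2.77 and 2.34. Median depth before thinning was 5264, 5203, 5246.5, 5001.5 and 5486 UMIs in the same classes. Selenbp1 had an r of -0.01 with log depth and of -0.33 with the mitochondrial share.

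Igfbp2 correlated most with Ndnf (0.30), Igfbp7 (0.24), the proteoglycan gene Spock2 (0.22), Bsg (0.20), Ager (0.19), Hspg2 (0.17), and Fjx1 (0.16), and least with Rps19 (-0.30), Selenbp1 (-0.27), Rps27 (-0.21) and Rpl37a (-0.20). From 520 cells with no Igfbp2 UMI to 164 with 10 to 28, mean Ndnf ran through 0.838, 1.02, 1.38, 1.79 and 2.66 UMIs, and mean Selenbp1 through 6.31, 5.99, 5.17, 3.95 and 2.61. Mean Hopx ran through 2.25, 2.52, 2.59, 2.42 and 2.47, with no steady direction. Other rule genes differed: mean Ager ran through 65.9, 67.7, 70.4, 73.2 and 80.5, and mean Rtkn2 through 2.96, 3.07, 2.91, 2.71 and 2.37. Median depth rose over these classes through 4704, 5136, 5462.5, 5481 and 6085 UMIs, and Igfbp2 had an r of 0.17 with log depth, 0.18 with the mitochondrial share and -0.34 with the ribosomal protein share. The part of these shares in the Igfbp2 correlations was not tested.

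**Figure D4:**
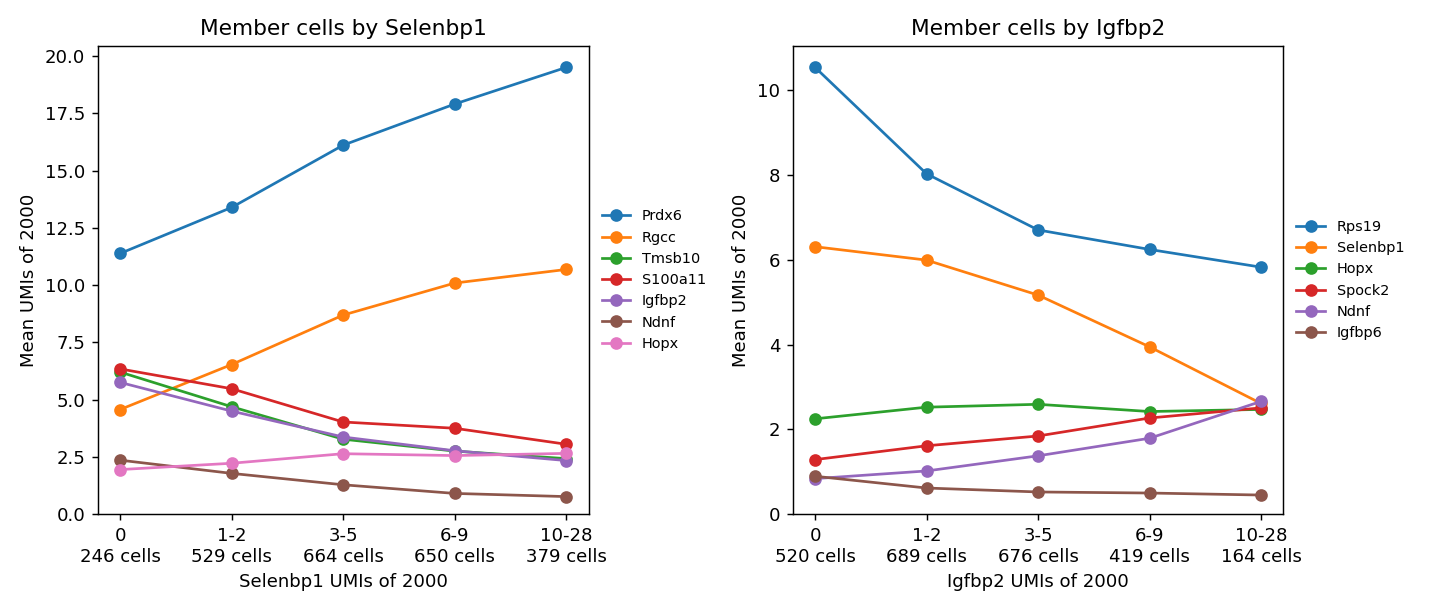
Mean UMIs of other genes (y axis, UMIs of 2000) in member cells grouped by their Selenbp1 UMIs (left) and Igfbp2 UMIs (right), with the number of cells under each class. Prdx6 and Rgcc climb with Selenbp1 while Tmsb10, S100a11, Igfbp2 and Ndnf decline, and Ndnf and Spock2 climb with Igfbp2 while Hopx stays between 2.25 and 2.59.

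Hopx had its highest correlations with Rgcc (0.17), Cyp2b10 (0.14), Prdx6 (0.14), Pxdc1 (0.14), Selenbp1 (0.13), Timp3 (0.13), Scd2 (0.12) and Cystm1 (0.11) and its lowest with Tmsb10 (-0.14), Nnat (-0.09), Actg1 (-0.08) and Bcam (-0.08). Ager correlated most with Igfbp7 (0.41), Sparc (0.29), Itm2b (0.27), H2-D1 (0.26), Tmem37 (0.25), Aqp5 (0.25), Pmp22 (0.25) and Tmem59 (0.24), whose products are secreted or lie in membranes, and least with Rpl41 (-0.20), Rpl38 (-0.18), Neat1 (-0.18) and Malat1 (-0.17). S100a6 correlated with S100a11 (0.40), the galectin gene Lgals3 (0.40), S100a10 (0.33) and Tmsb4x (0.32). Malat1 correlated with Neat1 (0.38) and, in the other direction, with Tmsb4x (-0.38). Fos correlated with Fosb (0.28), Cyr61 (0.27), Selenbp1 (0.25) and Jun (0.22). Of 28 listed immediate early genes 14 (50%) reached 100 CPM, where 12.6% of all listed genes did. Dusp1 was highest at 1131 CPM, and the median of their pairwise r was 0.05.

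**Figure D5:**
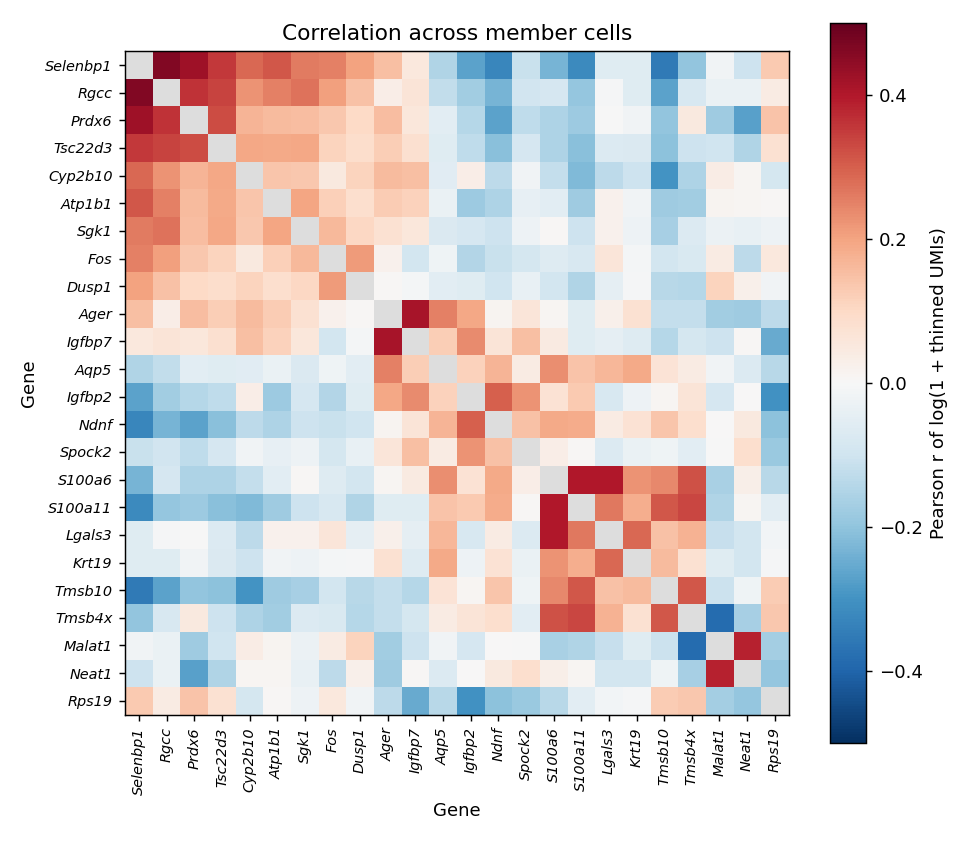
Pearson r of log(1 + UMIs) between 24 genes (both axes), chosen after their values were seen, across 2468 member cells thinned to 2000 UMIs, with the colour scale clipped at 0.5 and the diagonal in grey. Selenbp1, Rgcc, Prdx6 and Tsc22d3 form a red block that is blue against Tmsb10, S100a11 and Ndnf, and the S100 genes, Lgals3, Krt19 and the thymosins form a further red block.

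Of 39 listed interferon-response genes, 7 (17.9%) reached 100 CPM, where 12.6% of all listed genes did, and their median was 23.9 CPM. These were led by Ifi27 at 827.9 CPM and Ifit3 at 542.0 CPM. Isg15, which encodes a ubiquitin-like protein, stood at 140.5 CPM (134.4 to 146.9), against 128.7 CPM in the non-epithelial cells, with a UMI in 31.2 and 21.2% of the cells. Its correlation was highest with Bst2 (0.21), which encodes the virus-tethering protein tetherin, and fell to 0.10 when cells were thinned to 1000 UMIs, where the Fano factor of Isg15 was 1.43. Those with Ifit1, Oasl2 and Rtp4 were 0.17, 0.17 and 0.16, and that with Ifit3 was 0.09. Of the thinned cells 80.5% had no Isg15 UMI, and 19 cells had 4 to 7. In those 19 cells Bst2 averaged 1.00 and Ifit1 0.737 UMIs, against 0.253 and 0.155 UMIs in the 1986 cells with none. Bst2 stood at 160.0 CPM in the member cells, lower than the 421.2 CPM of the non-epithelial cells, and the part of free RNA in the correlation was not tested.

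The start regions of Isg15, Bst2 and Ifit1 are shown as examples of the interferon-stimulated motif in genes of this list that correlated with Isg15. Each is 300 bases of RefSeq sequence on build GRCm38.p6, 250 before the gene start and 50 from it, 5′ to 3′ on the gene's strand, at chr4:156200769-156201068 (minus), chr8:71537423-71537722 (minus) and chr19:34640639-34640938 (plus). Capitals mark the core of the interferon-stimulated response element, GAAANNGAAA on either strand, with overlapping matches joined.
Isg15: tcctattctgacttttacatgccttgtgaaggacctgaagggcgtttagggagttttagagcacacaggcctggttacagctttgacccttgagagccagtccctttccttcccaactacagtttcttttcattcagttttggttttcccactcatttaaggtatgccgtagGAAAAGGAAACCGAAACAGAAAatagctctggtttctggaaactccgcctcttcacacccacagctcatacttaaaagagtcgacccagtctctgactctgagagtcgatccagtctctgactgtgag
Bst2: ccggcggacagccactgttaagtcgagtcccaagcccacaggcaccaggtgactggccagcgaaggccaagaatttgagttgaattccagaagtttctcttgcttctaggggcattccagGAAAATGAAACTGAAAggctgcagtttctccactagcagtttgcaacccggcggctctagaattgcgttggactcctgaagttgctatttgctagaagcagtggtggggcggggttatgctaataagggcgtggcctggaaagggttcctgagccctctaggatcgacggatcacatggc
Ifit1: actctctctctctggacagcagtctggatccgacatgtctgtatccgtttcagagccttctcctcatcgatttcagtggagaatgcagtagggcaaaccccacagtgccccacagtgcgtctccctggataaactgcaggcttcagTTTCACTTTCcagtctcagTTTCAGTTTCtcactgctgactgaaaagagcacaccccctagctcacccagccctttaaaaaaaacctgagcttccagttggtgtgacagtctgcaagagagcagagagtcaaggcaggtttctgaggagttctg
Isg15 had 3 overlapping matches, beginning at -78, -72 and -66 from the gene start, Bst2 had matches at -130 and -124, and Ifit1 at -104 and -85. Of the 30 listed interferon-response genes with a RefSeq start region, 14 held the core (46.7%), where 3.99% of 27025 genes did. The TEAD motif CATTCC lay in 7 of 15 such regions of YAP and TAZ targets (46.7%), where 16.6% of all genes held it. Only 15 of the 24 targets were matched to a region, and Cyr61 and Ctgf, the highest by level, were not among the 7. The cyclic AMP response element TGACGTCA lay in 2 of 25 of the immediate early genes (Dusp1 and Btg2), where 2.03% of all genes held it. Oasl2 and Rtp4, with r of 0.17 and 0.16 with Isg15, were not among the 14, while Ifit3, with 0.09, was. A match says only that these letters occur in the window.

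The share of Malat1 differed widely between cells. Its 5th to 95th percentile ran from 0.312 to 16.03% of a cell's UMIs around a median of 6.0%. It was under 1% in 186 member cells (6.97%), with a median depth of 2817.5 UMIs, against 5140.5 in the others, and 39 cells had no Malat1 UMI. In the 107 cells under 0.1% the other nuclear RNA Neat1 stood at 63.3 CPM and Tmsb4x at 27100 CPM. In the 137 cells at 16% or more Neat1 stood at 2733 CPM and Tmsb4x at 14512 CPM. Hopx stood at 1387 CPM and at 1158 CPM in the same 2 classes, and mitochondrial genes took 3.92 and 4.04% of their UMIs. Neat1 had an r of 0.43 with the mitochondrial share and of -0.27 with log depth. The part of these in the spread of Neat1 was not tested.

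Kdm6b and Slc39a1 were higher in cells with much Actb. In the 388 thinned cells with 40 to 107 Actb UMIs, Kdm6b, a histone demethylase gene, averaged 0.526 UMIs and the zinc transporter gene Slc39a1 0.582, against 0.12 and 0.0543 UMIs in the 1050 cells with fewer than 10. Actg1, the gene of the other cytoplasmic actin, averaged 4.23 and 3.87 UMIs in these classes. These genes were chosen after their values were seen.

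Clustering the member cells alone at a resolution of 0.5 gave 6 clusters of 198 to 667 cells. The clusters are descriptions, since the same genes made them. The cluster of 542 cells was led by Tubb2a, Nme1, S100a14, Ndnf and Eva1a, with Ndnf at 1209 CPM, against 542.9 CPM in the other member cells, Igfbp2 at 2943 CPM and Selenbp1 at 616.9 CPM. The cluster of 667 cells was led by Rnaset2b, Stk32c, Dusp6, Klf2 and Fntb and had Selenbp1 at 3394 CPM and Igfbp2 at 1454 CPM. Selenbp1 was about as high in the clusters of 481 and 399 cells, at 3313 and 3262 CPM, and the cluster of 198 cells had Igfbp2 at 2775 CPM together with Selenbp1 at 2452 CPM. The cluster of 383 cells was led by Lars2, Neat1, Pf4, mt-Nd4l and Dlg4, with Neat1 at 2912 CPM, against 1038 CPM in the other member cells, and mitochondrial genes at 4.69% of the UMIs. Almost all Pf4 UMIs, 95.2% of 42, came from 4 cells. The cluster of 399 cells was led by Mfap4, Eln, Slc39a1, Abhd2 and Pam and had Actb at 19706 CPM, and that of 481 cells was led by the AT2 genes Sftpc, Sftpa1, Sftpb, Lyz2 and Sftpd. Both are led at least in part by genes of another cell type. For each of Sftpc, Lyz2 and Eln, the 4 highest member cells held 54.7, 65.4 and 38.5% of the UMIs. These leads therefore need not describe most cells of the clusters. The cluster of 198 cells, led by Cyb5r3, Tpm2, Htatip2, Ccng1 and Faim, had Malat1 at 10295 CPM and a median of 2382.5 UMIs. Ager ran from 33322 to 38645 CPM over the 6 clusters and Hopx from 958.5 to 1397 CPM. Another random start of the clustering gave 6 clusters with an adjusted Rand index of 0.738 with these (1 means the same partition), and rounding the principal components to 1 decimal gave 7 clusters with an index of 0.638, so the borders between them were not fixed.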

How the data were processed

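Sorted AT1 cells of 1 day 15 library were measured with 10x 3' single-cell sequencing. The deposited file holds natural log values, which the authors made by scaling each cell's UMIs to 10000, adding 1 and taking the logarithm, to judge by the values themselves. Cell Ranger 1.3.1, Seurat 2.0.0 and the builds mm10 and hg19 are named per the submitters' processing notes, which do not say what hg19 served for. Dividing unlogged values by each cell's smallest step gave whole UMIs for 100% of values within 0.05. The fewest cells per listed gene was 6. No cell was removed by depth or as a doublet, and no doublet caller was run. Of the member cells, 339 held 3 or more UMI-positive markers of another type (5 for club and ciliated).

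Levels are summed UMIs as CPM with exact Poisson intervals, shares have exact Clopper-Pearson intervals, both at 95% and for counting error only. Clusters used Scanpy 1.11.5 with igraph 0.11.9 (2000 variable genes, 20 components, 15 neighbours, resolution 0.5), with leading genes ordered by fold after adding 20 CPM to both levels, and classes named from fixed marker lists. The variation step was tested on simulated data. Positions come from GENCODE M21 and start regions from RefSeq.

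The members and gene lists were chosen with earlier results of these data known. Named genes are the rule and marker genes, the 15 most abundant, up to 8 members per list and defining members near 0, the 15 most variable by 2 measures, 8 highest and 4 lowest correlates of Igfbp2, Hopx and Ager, and up to 5 leading genes per cluster. Others are said to be chosen after their values were seen. A few genes that this rule names are not reported here.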

Additional observations from a re-analysis of the deposited data

How the results depend on the processing

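The number of member cells was 2670, and 2701 or 2488 when the threshold was 0.25 or 0.75 times the library median. At 1000 and 3000 UMIs 36 and 122 genes counted as variable, of 807 and 2367 with a mean of 0.2 UMIs, in place of 81. All 36 were among the 81 and all 81 among the 122. Resolutions of 0.25 and 1 gave 3 and 11 clusters of member cells, in place of 6, and another random start and rounded components gave 6 and 7. Removing cells with markers of another type left Sftpc at 0.339 times its level. Sftpc is itself among those markers, so a fall was built into this filter. The levels of the 8 rule genes stayed within 0.913 and 1.12 times under every alternative. These genes chose the cells, so this is a description and not a check. The 1.12 comes from a smaller total and is the same for every gene counted in that total. Isg15 and Ndnf fell below a Fano factor of 1.5 at 1000 UMIs, where the values were 1.43 and 1.41. Since the Fano factor grows with the mean, these falls and the changed counts of variable genes are in part set by the depth. No sign of the 14 correlations recomputed changed, and 4 moved by 0.1 or more at 1000 UMIs (Isg15 with Bst2 to 0.10, Fos with Fosb to 0.16, Selenbp1 with Rgcc to 0.34 and Igfbp2 with Rps19 to -0.20). At 3000 UMIs 1 moved that far, Selenbp1 with Prdx6 from 0.42 to 0.53. Leaving out the cells under 1% Malat1 or in clusters of another type, the other random start and the rounding were chosen after seeing the data. No paired analysis was possible because each group has 1 library.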
